A study of Mus musculus with 9 samples.

Results

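Cyp4 fatty acid hydroxylases are the cytochromes P450 that add a hydroxyl group to the far (omega) end of fatty acids, and 10 of their genes are described here across 9 mouse livers. The members are Cyp4a10, Cyp4a12a, Cyp4a12b, Cyp4a14, Cyp4a31, Cyp4a32, Cyp4f13, Cyp4f14, Cyp4f15 and Cyp4v3, chosen by symbol from the 21873 genes of the deposited table. All 10 passed the filter on low values. All mice were male C57BL/6 and were 8 weeks old when the experiment began. In the control group, 3 mice received normal saline by intraperitoneal injection for 8 weeks. In the TAA group, 3 mice received thioacetamide (TAA), a compound that injures hepatocytes and leads to fibrosis, for 8 weeks. In the recovery group, 3 mice received the same 8 weeks of TAA and were then left to recover for another 8 weeks. Control and TAA mice were killed for their livers 72 h after the last injection. Recovery mice were thus 8 weeks older than the others when their livers were taken, so age and recovery cannot be told apart.

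In hepatocytes, omega hydroxylation is the first step of a side route of fatty acid breakdown. Alcohol and aldehyde dehydrogenases turn the product into a dicarboxylic acid, which is shortened by beta oxidation in peroxisomes. Cyp4a genes are classical targets of PPARα, the nuclear receptor that senses fatty acids, while Cyp4f enzymes also inactivate leukotriene B4, a lipid that attracts neutrophils. Cyp4a12a is under androgen and growth hormone control in the mouse and forms the vasoactive lipid 20-HETE. Cyp4v3 is the mouse counterpart of a human gene mutated in Bietti crystalline dystrophy, an eye disease of lipid handling.

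The 6 Cyp4a genes lie in 1 cluster on chromosome 4 of GRCm38 (mm10), from the start of Cyp4a12a at 115299046 to the end of Cyp4a32 at 115621602. The 3 Cyp4f genes lie on chromosome 17, from the start of Cyp4f15 at 32685627 to the end of Cyp4f13 at 32947402. Cyp4v3 is on chromosome 8, from 45304944 to 45333216. All 10 are annotated as protein-coding. What they share is the stretch that binds the heme iron of the enzyme, printed here because its spelling separates the subfamilies and shows which genes are close copies. Each run of 30 bases was read from the GENCODE M21 coding sequence, 5′ to 3′ on the gene's own strand, and spans the junction of 2 exons, so that the coordinates given include the intron between them. Capitals mark the cysteine codon whose sulfur holds the iron.
Cyp4a10 (chr4:115529502-115532543, plus strand): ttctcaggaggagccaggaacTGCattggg
Cyp4a12a (chr4:115328986-115331846, plus strand): ttctcaggaggagcaaggaacTGCattggg
Cyp4a14 (chr4:115487299-115489805, minus strand): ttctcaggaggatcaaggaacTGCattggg
Cyp4f13 (chr17:32924942-32925340, minus strand): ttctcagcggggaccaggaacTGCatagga
Cyp4f14 (chr17:32905666-32906065, minus strand): ttctcggcgggacccaggaacTGCatagga
Cyp4f15 (chr17:32702398-32702801, plus strand): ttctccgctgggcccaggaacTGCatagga
Cyp4v3 (chr8:45307107-45308407, minus strand): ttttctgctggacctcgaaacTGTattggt

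Cyp4a31 and Cyp4a32 carry the stretch of Cyp4a10 with 0 differences, and Cyp4a12b that of Cyp4a12a. Cyp4a10 and Cyp4a14 differ at 2 of the 30 bases, Cyp4a10 and Cyp4f14 at 6, and Cyp4a10 and Cyp4v3 at 10. Over the whole coding sequence, Cyp4a12a and Cyp4a12b were 98.5% identical. Cyp4a10 was 96.6% identical to Cyp4a31 and 97.2% to Cyp4a32, but 75.2% to Cyp4a14. The 3 Cyp4f genes were 74.2% to 80.0% identical to each other. Of all windows of 150 bases, the read length, 25.6% in the Cyp4a12a transcript and 25.9% in that of Cyp4a12b occurred in both genes. The share was 4.34% for Cyp4a10, 4.19% for Cyp4a31 and 7.97% for Cyp4a32, and 0 for the other 5 members. Only transcripts of Cyp4 genes were searched, so windows shared with any other gene would not be seen. How reads that fit more than 1 gene were counted is not given in the sources used here, so the split of reads between Cyp4a12a and Cyp4a12b, and among Cyp4a10, Cyp4a31 and Cyp4a32, is uncertain. Gm45753 is annotated on the same strand over the downstream end of Cyp4v3 and was not analysed here, and reads in the overlap may belong to either gene.

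The deposited values are FPKM, which count fragments for a given gene length and sequencing depth and so can be compared between genes. The depth, estimated from the steps between low values, was 26.9 to 40.5 M fragments per library, and no pair of libraries had more than 5 identical values above 0. Each library was scaled by the median of its ratios to the geometric mean of all libraries, and levels are given as scaled FPKM. Skeletal muscle markers were raised in TAA replicate 3, where the sum of 5 was 35.1 against 0.209 and 0.389 in the other TAA mice. Adrenal markers were raised in recovery replicate 3, where the sum of 4 was 4.19 against 0.399 in each of the other recovery mice. Of 5 kidney markers, 4 were at 0 in all control and TAA mice and 3 in all recovery mice. Kidney also expresses Cyp4 genes, and this list summed to at most 0.144. Leaving out any 1 mouse changed no call of a member in any comparison.

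Cyp4 RNA was dominated by Cyp4a14 and Cyp4a10. In the control group, Cyp4a14 had a scaled FPKM of 2368 ± 460 (SD, n = 3) and was the 25th most abundant of all genes by group mean, and Cyp4a10 had 1376 ± 22.5. Cyp4a12a (146 ± 47.3) and Cyp4v3 (135 ± 0.987) came next and overlapped each other. The levels of Cyp4a12b, Cyp4a32 and Cyp4f15, at 73.7 ± 7.13, 67.9 ± 10.2 and 61.1 ± 8.29, also overlapped from 1 gene to the next. Below them lay Cyp4a31 at 45.2 ± 7.36, Cyp4f14 at 33.5 ± 2.62 and Cyp4f13 at 24.8 ± 3.05, without overlap between neighbours.

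The whole pool of Cyp4 RNA was small in the TAA livers and large again after recovery. The 10 genes held 0.904%, 1.09% and 0.946% of all deposited FPKM in the control mice, 0.0789%, 0.115% and 0.0884% in the TAA mice, and 0.810%, 0.991% and 0.919% in the recovery mice. TAA mice lay below all other mice, and control and recovery mice overlapped. This share does not depend on the scaling between libraries. The makeup of the pool moved as well. Cyp4a10 and Cyp4a14 together made up 86.4% ± 1.397 of it in control livers, 50.2% ± 9.80 in TAA livers and 85.3% ± 2.24 after recovery. Cyp4v3 held 3.15% ± 0.357 of the pool in control livers, 18.4% ± 2.75 in TAA livers and 3.38% ± 0.488 after recovery, and the 3 Cyp4f genes held 2.80% ± 0.567, 20.3% ± 5.96 and 2.81% ± 0.378. These shares are descriptions with no test, and a member's share can grow while its own level falls, as that of Cyp4v3 did.

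**Figure D1:**
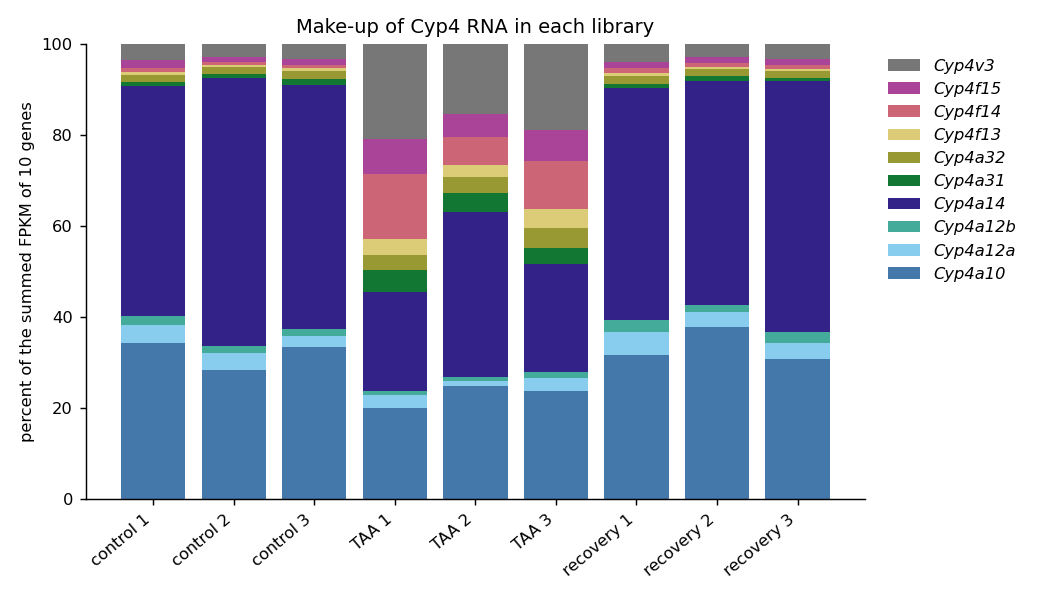
Bars give each of the 9 libraries, and colors the percent of the summed deposited FPKM of the 10 genes that each gene held. Cyp4a10 and Cyp4a14 fill between 82.9% and 87.2% of the bar in control and recovery mice and between 41.9% and 61.0% in TAA mice.

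The first comparison asked which Cyp4 genes differed between fibrotic and control livers. Groups were compared with limma on log2(scaled FPKM + 0.1), with Benjamini-Hochberg adjustment over 14094 tested genes (the FDR). A gene was called differentially expressed (a DEG) where the FDR was under 0.05 and the levels differed by a factor of 2 or more. In the TAA group, 9 of the 10 members were lower DEGs and none was higher, where 8.02% of all tested genes were lower DEGs. All 10 members passed the FDR alone, where 54.5% of all tested genes did. The median log2 fold change of the members was -2.60, beside 0.02 over all tested genes. The recovery group was then compared with the TAA group, which asks what came back after TAA was withdrawn. The same 9 members were higher DEGs, where 7.12% of all tested genes were, and all 10 passed the FDR alone, where 50.5% did. They had a median log2 fold change of 2.27 beside -0.01 over all tested genes. Both comparisons share the TAA mice, so the second is not independent of the first. In both, the groups did not overlap for any of the 10 members, where 31.0% of all tested genes lay lower without overlap in the TAA mice than in the control mice and 29.4% lay higher in the recovery mice than in the TAA mice. Since these are bulk livers, fewer hepatocytes and less RNA per hepatocyte cannot be told apart.

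**Figure D2:**
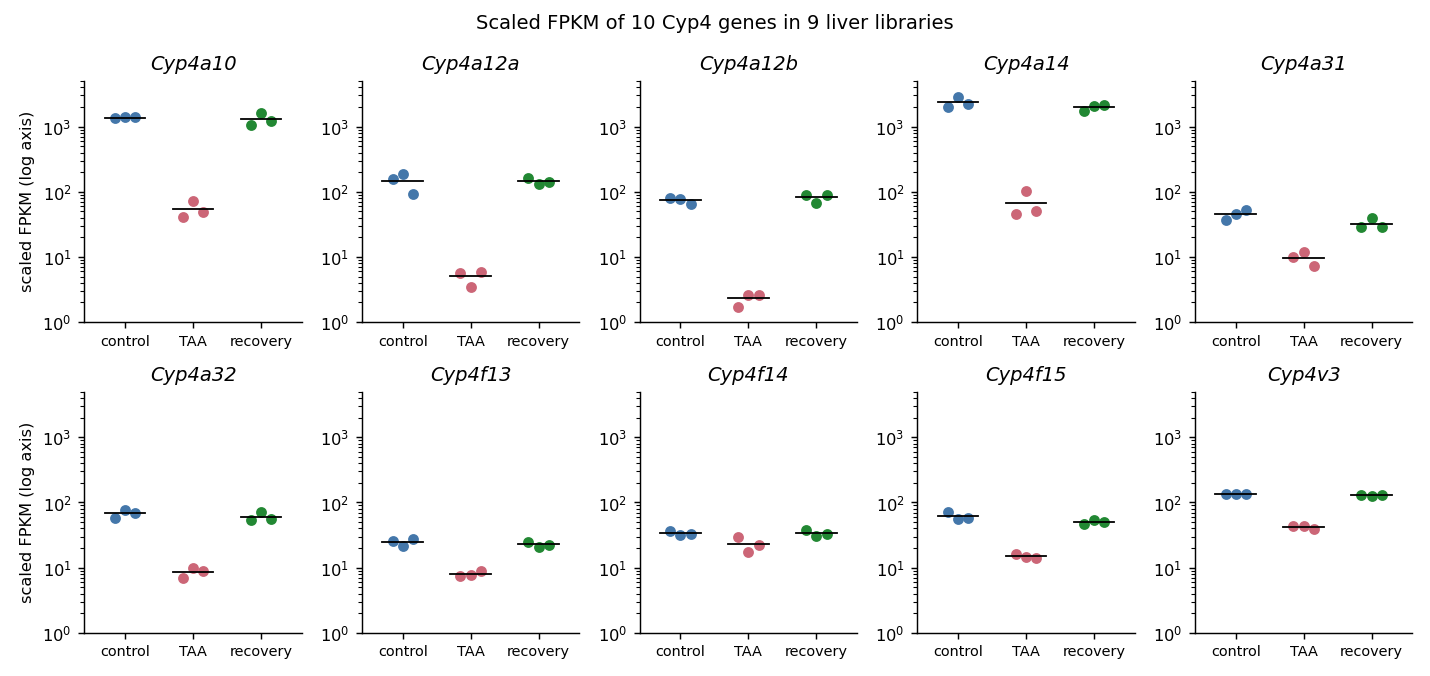
Each panel is 1 gene, with scaled FPKM on a log axis, a point for each mouse and a line at the mean of the 3 mice of a group. In all 10 panels the TAA mice lie below every control and recovery mouse, by a wide gap for Cyp4a10, Cyp4a12a, Cyp4a12b and Cyp4a14 and by a narrow one for Cyp4f14.

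Cyp4a14, a PPARα target that hydroxylates medium-chain fatty acids, had the largest fold change of the members in the TAA group, except with quantile normalization, where Cyp4a12b (-4.90) and Cyp4a12a (-4.52) were ahead of it (-4.36). Its scaled FPKM were 1991, 2880 and 2232 in the control mice, 45.2, 104 and 49.9 in the TAA mice and 1731, 2081 and 2163 in the recovery mice. TAA replicate 2 was the highest of its group, yet the lowest control mouse was still 19.2 times as high. Relative to control livers, the log2 fold change was -5.24 in TAA livers (standard error 0.31, FDR = 1.63e-05, limma), a 37.9-fold fall, and 5.005 in recovery vs TAA (standard error 0.29, FDR = 1.68e-05).

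Cyp4a10, the second abundant PPARα target, had 1350, 1387 and 1391 in the control mice, 41.3, 70.9 and 49.8 in the TAA mice and 1074, 1596 and 1203 in the recovery mice. The control mice were within a factor of 1.03 of each other, while the recovery mice spread over a factor of 1.49 and lay on both sides of them. The log2 fold change was -4.71 (standard error 0.19, FDR = 3.62e-06, limma) and then 4.59 (standard error 0.22, FDR = 8.34e-06). The ratio of Cyp4a14 to Cyp4a10 within a library was 1.47 to 2.08 in control livers, 1.003 to 1.47 in TAA livers and 1.30 to 1.80 after recovery. TAA mice thus had the lowest ratios, but their range overlapped with that of the recovery group.

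The pair Cyp4a12a and Cyp4a12b fell by a similar amount. Cyp4a12a had 159, 186 and 93.6 in the control mice, 5.74, 3.45 and 5.94 in the TAA mice and 165, 132 and 142 in the recovery mice. Control replicate 3 was the low one of its group, and the highest TAA mouse was still 15.8 times lower. The log2 fold change of Cyp4a12a was -4.81 in TAA livers (standard error 0.29, FDR = 1.84e-05, limma) and 4.87 in recovery vs TAA (standard error 0.20, FDR = 5.22e-06). Cyp4a12b had 79.1, 76.5 and 65.6, then 1.69, 2.61 and 2.65, then 90.4, 67.6 and 89.0 in the mice of the 3 groups, in the same order. It was the lowest member in the TAA livers, with a log2 fold change of -4.95 (standard error 0.18, FDR = 2.79e-06, limma) and then 5.11 (standard error 0.19, FDR = 4.62e-06). The ratio of Cyp4a12a to Cyp4a12b was 1.43 to 2.43, 1.32 to 3.39 and 1.60 to 1.95 in the control, TAA and recovery groups, so that the ranges overlapped in every pair of groups. When the FPKM of both genes were summed before the fit, the log2 fold changes were -4.86 and 4.95.

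Cyp4a31 and Cyp4a32, the close copies of Cyp4a10, had smaller fold changes than Cyp4a10, and the difference between genes was not tested. Cyp4a32 had 57.2, 77.5 and 69.1 in the control mice, 6.82, 10.01 and 8.99 in the TAA mice and 53.8, 70.3 and 55.2 in the recovery mice. Its log2 fold changes were -2.97 (standard error 0.17, FDR = 1.36e-05, limma) and 2.79 (standard error 0.16, FDR = 1.71e-05). Cyp4a31 had 37.4, 46.0 and 52.1, then 9.96, 11.9 and 7.20, then 28.9, 39.4 and 28.8, with log2 fold changes of -2.22 (standard error 0.20, FDR = 8.98e-05, limma) and 1.74 (standard error 0.20, FDR = 3.00e-04). For both copies the TAA mice lay apart from the other groups, by less than for Cyp4a10. The part of reads shared with the abundant Cyp4a10 in these values was not tested. With the 3 genes summed, the log2 fold changes were -4.39 and 4.27, close to those of Cyp4a10, which supplied most of the sum.

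Cyp4f15, Cyp4f13 and Cyp4v3 fell in the TAA livers by smaller amounts. Cyp4f15 had 70.7, 55.9 and 56.8 in the control mice, 16.1, 14.4 and 14.3 in the TAA mice and 46.2, 54.3 and 50.3 in the recovery mice. Its log2 fold changes were -2.02 (standard error 0.11, FDR = 1.35e-05, limma) and 1.75 (standard error 0.097, FDR = 1.28e-05). Cyp4f13 had 25.4, 21.5 and 27.6, then 7.41, 7.64 and 8.95, then 25.2, 20.6 and 22.2, with log2 fold changes of -1.62 (FDR = 4.55e-05) and 1.49 (FDR = 4.90e-05). For both genes, replicates within a group differed by less than a factor of 1.28. Cyp4v3 was the steadiest member, at 136, 135 and 134 in the control mice, 42.9, 44.1 and 39.7 in the TAA mice and 132, 124 and 129 in the recovery mice. Its log2 fold changes were -1.68 (standard error 0.079, FDR = 7.31e-06, limma) and 1.60 (standard error 0.083, FDR = 9.91e-06).

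Cyp4f14, an enzyme that acts on leukotriene B4 and vitamin E, was the member that was not a DEG in either comparison. It had 36.5, 31.7 and 32.3 in the control mice, 29.2, 17.6 and 21.9 in the TAA mice and 38.1, 30.8 and 32.8 in the recovery mice. The highest TAA mouse, replicate 1, was just below the lowest recovery mouse. The log2 fold change of -0.57 in the TAA group passed the FDR alone (0.0262, limma; standard error 0.18), as did 0.59 in recovery vs TAA (FDR = 0.0270), and both were under a fold change of 2. With 1 mouse left out in turn, the FDR reached 0.0772 and 0.0835. Its direction in the TAA group also depended on the scaling, as described below. Within each library, Cyp4f15 was 1.76 to 1.94 times as abundant as Cyp4f14 in control livers, 0.549 to 0.816 times in TAA livers and 1.21 to 1.76 times after recovery. The ratio of Cyp4f13 to Cyp4f14 was 0.679 to 0.853, 0.253 to 0.433 and 0.660 to 0.677, and that of Cyp4v3 to Cyp4f14 was 3.73 to 4.25, 1.47 to 2.50 and 3.46 to 4.01. All 3 ratios were lower in every TAA mouse than in any other mouse, and they do not depend on the scaling.

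Because the Cyp4f genes moved by different amounts, the promoters of Cyp4f14 and Cyp4f15 are shown. Promoters of 5 members were matched in RefSeq on GRCm38.p6, namely those of Cyp4a32, Cyp4f13, Cyp4f14, Cyp4f15 and Cyp4v3. Each run is the 250 bases before the start site, 5′ to 3′ on the gene's strand, and capitals mark a CCAAT box, a common promoter element, which reads ATTGG on this strand.
Cyp4f14 (chr17:32917357-32917606, minus strand): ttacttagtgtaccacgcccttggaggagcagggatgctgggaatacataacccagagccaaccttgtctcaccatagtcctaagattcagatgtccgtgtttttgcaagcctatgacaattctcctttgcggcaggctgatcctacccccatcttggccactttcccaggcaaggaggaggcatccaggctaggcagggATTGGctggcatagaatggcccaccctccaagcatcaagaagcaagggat
Cyp4f15 (chr17:32685409-32685658, plus strand): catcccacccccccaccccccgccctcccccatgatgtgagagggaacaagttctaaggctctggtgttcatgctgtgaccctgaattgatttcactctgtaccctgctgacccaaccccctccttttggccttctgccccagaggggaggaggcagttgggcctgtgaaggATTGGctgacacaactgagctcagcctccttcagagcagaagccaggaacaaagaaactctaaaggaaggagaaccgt

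The CCAAT box began 50 bases before the start site in Cyp4f14, 78 bases before it in Cyp4f15 and 76 bases before it in Cyp4f13, and it also occurred in Cyp4a32. CCAAT on either strand is present in 34.5% of the 27025 promoters of the same length. The element that PPARα binds together with RXR was searched on both strands as a pair of AGGTCA with 1 base between them, and it occurred in 0.0370% of all promoters and in none of the 5. The single AGGTCA, which is part of that element, occurred in 13.8% of all promoters and in none of the 5. The TATA box, searched as TATAAA on both strands, occurred in 13.0% of all promoters and in Cyp4a32. A match is only a match of letters, and its absence refers only to this window. The exact pair is so rare that its absence from 5 promoters says little. Promoters of Cyp4a10, Cyp4a12a, Cyp4a12b and Cyp4a14, the members with the largest falls, were not among those searched as members.

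In the direct comparison of the recovery group with the control group, 0 of the 10 members were DEGs by limma, where 0.993% of all tested genes were, and 2 members had an unadjusted p under 0.05, where 23.0% of all tested genes did. These were Cyp4a31, with a log2 fold change of -0.48 (95% interval -0.89 to -0.08, FDR = 0.157), and Cyp4f15, with -0.28 (95% interval -0.55 to -0.003, FDR = 0.212). The recovery mice lay below all control mice for Cyp4f15 and for Cyp4v3, without overlap, where 15.6% of all tested genes did the same. Cyp4v3 differed little, by -0.07 (95% interval -0.22 to 0.07). For the 4 genes that fell most in the TAA group, the intervals reached from -0.68 to 0.20 for Cyp4a14, from -0.50 to 0.28 for Cyp4a10, from -0.55 to 0.66 for Cyp4a12a and from -0.17 to 0.48 for Cyp4a12b. The data thus leave room for differences of up to 1.60-fold in Cyp4a14, and a miss of the threshold does not show that levels were equal.

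The share of the TAA change that was left in the recovery group was computed on the log2 scale as the recovery minus control difference over the TAA minus control difference. Its median over the 10 members was 4.47%, and for each recovery mouse alone it was 4.76%, 5.38% and 4.39% (SD 0.498, n = 3). The median fell to 0.0776% with quantile normalization and to 2.86% with near-identical genes summed. Cyp4a31 kept 21.7% ± 11.7 (SD over the 3 recovery mice) and Cyp4f15 13.7% ± 5.78. Cyp4f13 kept 7.91% ± 8.93, Cyp4a32 6.15% ± 7.15, Cyp4a14 4.56% ± 3.27, Cyp4v3 4.39% ± 2.86 and Cyp4a10 2.38% ± 6.26. Values below 0 mean a recovery level above control, and they were -1.19% ± 3.47 for Cyp4a12a, -3.06% ± 4.75 for Cyp4a12b and -2.67% ± 27.4 for Cyp4f14. For all members other than Cyp4a31, Cyp4a14, Cyp4f15 and Cyp4v3, the share was smaller than its SD.

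**Figure D3:**
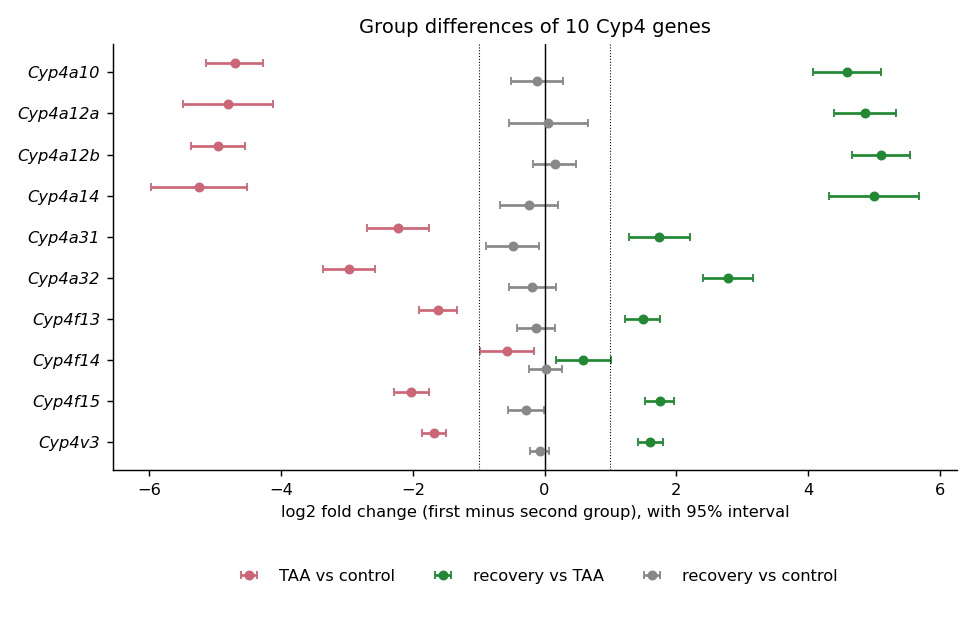
Points give the log2 fold change of each gene in the 3 comparisons with its 95% interval from limma (n = 3 mice per group), and dotted lines mark a fold change of 2 in each direction. Cyp4a10, Cyp4a12a, Cyp4a12b and Cyp4a14 lie near -5 and 5, Cyp4f14 lies inside the dotted lines, and in recovery vs control every point lies between -0.48 and 0.15.

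The size of the TAA difference depended on how libraries were brought to 1 scale. The scaling used here lowered every gene in TAA livers by 0.64 relative to control livers on the log2 scale. With FPKM as deposited, 8 members were lower DEGs, and Cyp4f13 missed the fold change of 2 at -0.99. When libraries were scaled on 12 hepatocyte markers instead, which puts the median of all genes at 0.95 in the TAA group, 7 members were lower DEGs. Cyp4f13 (-0.65) and Cyp4v3 (-0.70) then passed the FDR but not the fold change. Of all DEGs in TAA vs control, 91.2% were higher with FPKM as deposited and 95.9% with hepatocyte marker scaling. Lower DEGs were thus a small part of all DEGs under both. Cyp4f14 turned to 0.06 as deposited (FDR = 0.752) and to 0.40 relative to the hepatocyte markers (FDR = 0.0315). Relative to the median of all genes in that scaling, Cyp4f14 was still lower. The 6 Cyp4a genes and Cyp4f15 were lower DEGs in the TAA group under each of these scalings and with quantile normalization.

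**Figure D4:**
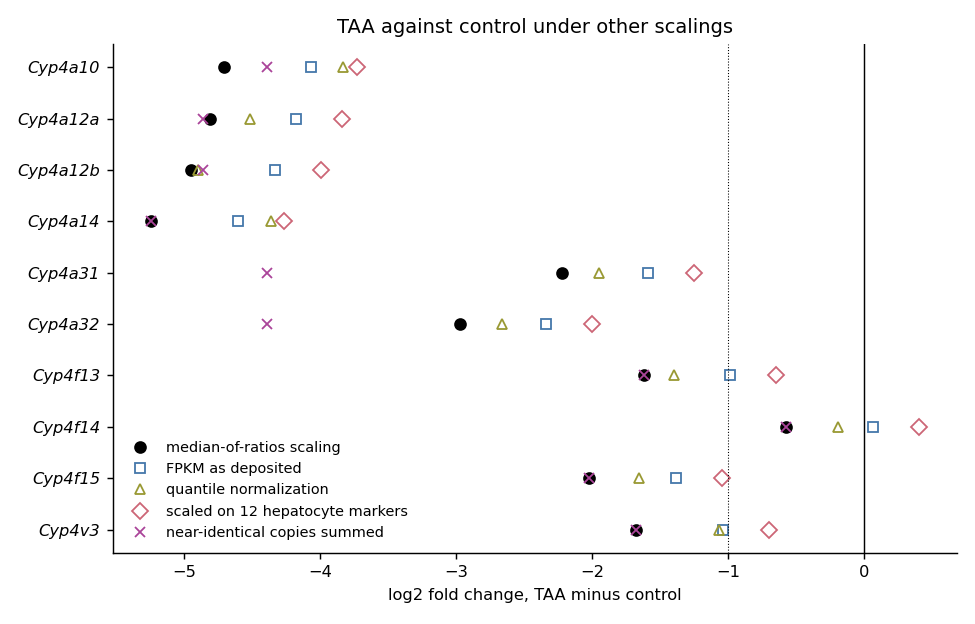
Symbols give the log2 fold change of each gene of TAA vs control under 4 scalings and with near-identical copies summed (Cyp4a12a with Cyp4a12b, and Cyp4a10 with Cyp4a31 and Cyp4a32). The solid line is 0 and the dotted line a fold change of 2. Cyp4f14 crosses 0, while the 6 Cyp4a genes stay below the dotted line.

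Markers of the cell types of the liver were set beside the Cyp4 genes. Of 12 hepatocyte markers, 5 were lower DEGs in the TAA group (median log2 fold change -0.80), led by Apoa2 (-1.87) and Apoa1 (-1.55), both apolipoproteins of high-density lipoprotein. Alb, the albumin gene, differed by -0.48 (FDR = 0.188) and Ahsg, a secreted glycoprotein, by -0.01. Their summed level was 49699 to 54469 in the control mice, 29254 to 37199 in the TAA mice and 60779 to 61605 in the recovery mice, and 0 of the 12 were at 0. The call depended on the scaling, since 1 marker was a lower DEG as deposited (median -0.16), and 4 were higher and none lower with quantile normalization (median 0.33). Markers of other cells rose. All 6 markers of stellate cells and myofibroblasts were higher DEGs, led by Col1a1 (5.91) and Col3a1 (4.95), and their sum went from 13.4 to 14.0 in the control mice to 154 to 221 in the TAA mice and 12.3 to 20.01 in the recovery mice. All 5 cholangiocyte markers were higher DEGs, led by Spp1 (4.31) and Epcam (4.21), and summed to 15.7 to 20.9, 295 to 442 and 27.9 to 38.4. All of these stellate and cholangiocyte markers stayed higher DEGs as deposited and with hepatocyte marker scaling. The part of these shifts in the fall of the Cyp4 genes was not tested.

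Other markers moved less. Of 6 lymphocyte and neutrophil markers, 3 were higher DEGs in the TAA group, led by S100a8 (2.999) and S100a9 (2.53), and summed levels were 1.32 to 4.92, 14.4 to 20.2 and 3.03 to 6.03. Of 5 macrophage markers, Cd68 (1.21) was a higher DEG, and of 5 endothelial markers 0 were DEGs by limma, with 1 at an unadjusted p under 0.05. With hepatocyte marker scaling, 4 macrophage and 3 endothelial markers were higher DEGs. Summed levels were 48.1 to 114, 98.3 to 106 and 128 to 161 for macrophages and 31.3 to 55.2, 34.4 to 46.6 and 54.1 to 61.0 for endothelium, with control replicate 1 the lowest of all mice in both.

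Of 4 reductase and cytochrome b5 genes, not all of which hand electrons to Cyp4 proteins directly, 1 was a lower DEG in the TAA group. Por, the reductase that every microsomal P450 needs, went from 259 ± 13.9 (SD, n = 3) to 131 ± 3.21 and to 195 ± 26.2, with log2 fold changes of -0.98 (FDR = 7.77e-05, limma) and then 0.56, just under a fold change of 2. Cyb5a, the cytochrome b5 of the endoplasmic reticulum, differed by -1.12 in the TAA group and by 0.79 in recovery vs TAA. With hepatocyte marker scaling neither was a DEG in the TAA group, at -0.0026 for Por and -0.14 for Cyb5a, while Cyb5b (1.24) and Cyb5r3 (1.08) were higher DEGs.

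Genes that act after omega hydroxylation moved mostly in the same direction as the Cyp4 genes. Of 23, which cover dehydrogenases, acyl-CoA activation and peroxisomal beta oxidation, 17 were lower DEGs in the TAA group and none was higher (median log2 fold change -1.60), and 15 were higher DEGs in recovery vs TAA with 1 lower (median 1.42). As deposited, 10 were lower and 1 higher DEGs in the TAA group, and 9 were higher and 2 lower in recovery vs TAA. Hepatocyte marker scaling gave 10 lower and 2 higher, then 7 higher and 3 lower. In recovery vs control, 0 were DEGs by limma and 10 had an unadjusted p under 0.05. The largest falls were in Acot3 (-3.06), a peroxisomal acyl-CoA thioesterase, and Acaa1b (-2.68), a peroxisomal thiolase, and the largest rises in recovery in Acot3 (3.03) and Acsl1 (2.57), which activates fatty acids. The alcohol dehydrogenase Adh1 did not follow them, with 789 ± 112, 1132 ± 12.8 and 568 ± 67.6 in the 3 groups, and was a lower DEG in recovery vs TAA (-1.002).

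Regulators of the Cyp4a genes came next. Of 8 genes that hold PPARα, its partners and coregulators, 5 were lower DEGs in the TAA group and 1 was a higher DEG in recovery vs TAA. Ppara had 143 ± 15.4 in control livers, 51.3 ± 4.98 in TAA livers and 96.6 ± 14.3 after recovery, with log2 fold changes of -1.48 in the TAA group and 0.90 in recovery vs TAA. For its partner Rxra they were -1.25 and 0.80, and for Hnf4a, a master regulator of hepatocyte genes, -1.11 and 1.07. The coactivator Ppargc1b had -1.34 in the TAA group. With FPKM as deposited or with hepatocyte marker scaling, 0 of the 8 were DEGs in the TAA group by limma. Under these scalings, 6 and 4 had an unadjusted p under 0.05, in both directions. As deposited, Med1 (0.42) and Ncor1 (0.26) were higher and the others of the 6 lower. Relative to the hepatocyte markers, Med1 (0.76), Ncoa1 (0.60) and Ncor1 (0.60) were higher. Of the 4, only Ppara was lower, at -0.50 (FDR = 0.00231, limma). Rxra (-0.27) and Hnf4a (-0.14) had an unadjusted p above 0.05 there. In the recovery group Ppara differed from control by -0.57 (FDR = 0.0711, limma), and Rxra by -0.45 (FDR = 0.0515). Of 25 other PPARα targets, 20 were lower DEGs in the TAA group with 1 higher (median -1.58), and 19 were higher in recovery vs TAA with none lower (median 1.44). With hepatocyte marker scaling, 7 were lower and 2 higher DEGs in the TAA group, and 7 were higher and 1 lower in recovery vs TAA. As deposited, these counts were 12 and 2, then 11 and 1. Retsat, a retinol saturase, had the largest fall (-3.49) and Vnn1, a pantetheinase, the next (-3.03). Fgf21, a fasting hormone, had the largest rise in recovery (3.41), before Retsat (3.31). Pdk4, which blocks the entry of glucose carbon into mitochondria, did not follow them. It rose by 2.33 in the TAA group and was still 2.42 above control in the recovery group. Cd36, a fatty acid carrier, which was named after its values were seen, differed by 0.97 in the TAA group and -0.77 in recovery vs TAA, under a fold change of 2, and was a higher DEG in the TAA group as deposited (1.61), with hepatocyte marker scaling (1.95) and with quantile normalization (1.51).

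**Figure D5:**
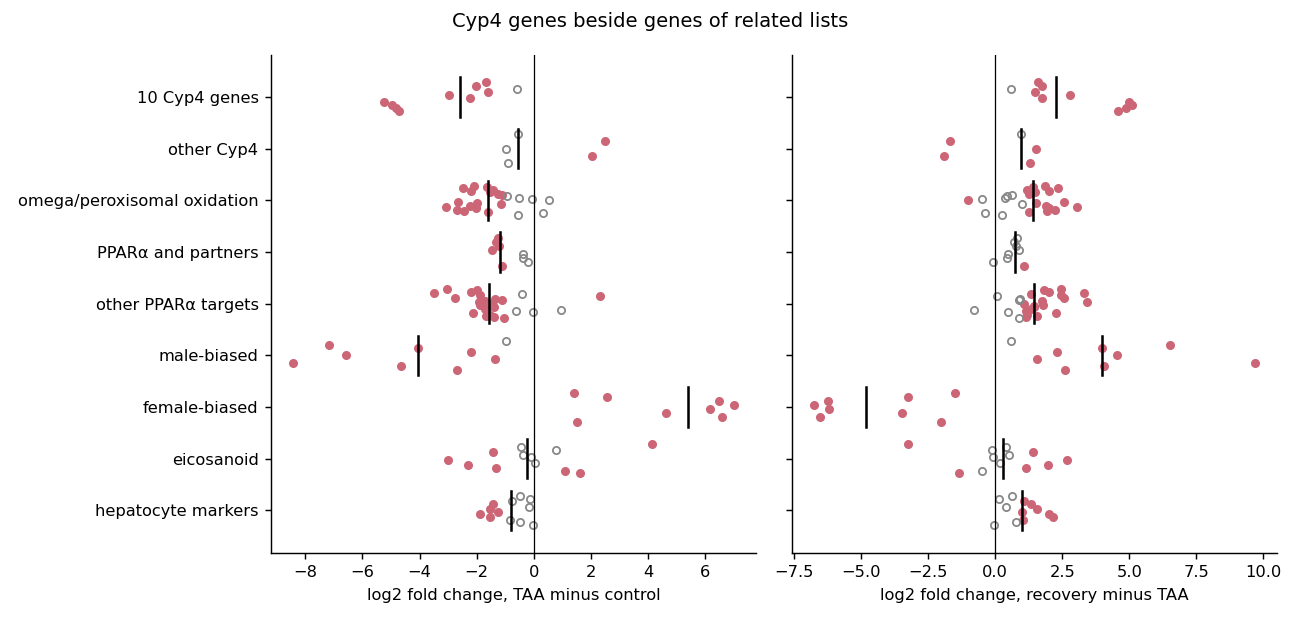
Points are the log2 fold changes of tested genes, filled where the gene was a DEG, with a line at each list's median, for TAA minus control (left) and recovery minus TAA (right). The 10 Cyp4 genes, the omega and peroxisomal oxidation genes and the other PPARα targets have medians of -2.60, -1.60 and -1.58 on the left. On the right their medians are 2.27, 1.42 and 1.44. The tested female-biased genes lie on the opposite side, a direction that the low-value filter partly set.

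Cyp4a12a is known as a male-biased gene, and other sex-biased genes of mouse liver were set beside it. Of 9 male-biased genes, 8 were lower DEGs in the TAA group (median log2 fold change -4.04) and 8 were higher DEGs in recovery vs TAA (median 3.98). Elovl3, a fatty acid elongase, fell from 68.6 ± 13.2 to 0.0982 ± 0.0056 (log2 fold change -8.42) and reached 167 ± 44.6 in the recovery group, where it was a higher DEG than in control (1.27), a call that was lost with hepatocyte marker scaling. Slco1a1, an organic anion carrier, fell by 7.17 on the log2 scale. Hsd3b5, a steroid dehydrogenase, remained a lower DEG in recovery vs control (-2.03). All 8 tested female-biased genes of 10 were higher DEGs in the TAA group (median 5.41) and lower DEGs in recovery vs TAA (median -4.83), led by the P450 genes Cyp3a41a (7.02, then -6.75) and Cyp2a4 (6.61, then -6.52). With control levels near 0, the fold change of Cyp3a41a is set partly by the 0.1 added to each FPKM. The low-value filter used the mean of all 9 libraries. Cyp3a41a, at 0.00528, 13.6 and 0.0272 in the control, TAA and recovery groups, passed it only through the TAA mice. So did Cyp3a16, at 0, 7.41 and 0. Genes of this list could thus be tested because they were high in TAA livers, so their shared direction and both medians were partly set by the filter. Sult3a1 and Cyp2b13 were not tested. Sult3a1 was at 0 in the TAA mice and had means of 0.0299 in the control and 0.0700 in the recovery group. Cyp2b13 had 0.00588, 0.0412 and 0.00951 in the 3 groups, in the order above. With hepatocyte marker scaling and the same filter, 7 of the 9 male-biased genes were still lower DEGs and 8 female-biased genes higher ones in the TAA group. Of growth hormone and STAT5B genes, Igfals, which carries IGF1 in the blood, differed by -1.65 in the TAA group, where it was a lower DEG, but missed the call with hepatocyte marker scaling (-0.68, FDR = 0.0823). Bcl6, a repressor in the STAT5B pathway, was a higher DEG in recovery vs TAA (1.77).

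Among genes of eicosanoid handling, the substrates and rivals of Cyp4 enzymes, directions were mixed. Of 12 tested, 3 were higher and 4 lower DEGs in the TAA group, and 4 were higher and 2 lower in recovery vs TAA. These counts were 5 and 2, then 2 and 3, with hepatocyte marker scaling. Ptgr1, which like Cyp4f enzymes inactivates leukotriene B4, rose by 4.15 and then changed by -3.26, and Alox5, which starts leukotriene synthesis, rose by 1.61 and then changed by -1.35 at scaled FPKM of at most 0.283 in the group means. Ephx2, the soluble epoxide hydrolase, fell from 793 ± 24.5 to 99.3 ± 5.55 (log2 fold change -2.996) and rose by 2.68 to 638 ± 61.5. Cyp2j5, an epoxygenase, changed by -2.31 and 1.95.

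The Cyp4 genes outside the 10 members were expressed at low levels, and their directions differed. Of these 10, 5 were tested. Cyp4f18, the leukotriene B4 hydroxylase of mouse neutrophils, was higher in the TAA group (0.447 ± 0.346 to 2.35 ± 0.322, log2 fold change 2.48) and lower again in the recovery group (-1.67). Cyp4f16 went from 1.18 ± 0.113 to 5.12 ± 0.107 and to 1.30 ± 0.159, with log2 fold changes of 2.03 and -1.91. Cyp4b1 and Cyp4f17 differed by -0.89 and -0.99 in the TAA group, under a fold change of 2, and were higher DEGs in recovery vs TAA (1.28 and 1.51), which did not hold as deposited or with hepatocyte marker scaling. In recovery vs control, 0 were DEGs by limma and 1 had an unadjusted p under 0.05.

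The genes whose pattern over the 9 libraries was most like that of Cyp4a14 among 11091 genes were Slc22a5, a carnitine carrier (Pearson's r = 0.994), Gosr1 (0.994) and Cyp2d26 (0.994). For Cyp4a12a they were Pex16, a peroxisome assembly gene (0.996), Slc27a5, a bile acid and fatty acid ligase (0.994), and Aldh2 (0.994). These values describe 9 libraries in 3 groups, which share the group differences, and carry no test. Levels of Slc22a5 were 39.3 ± 4.25, 8.36 ± 0.505 and 34.1 ± 1.39 in the control, TAA and recovery groups, a smaller range than that of Cyp4a14. Pex16 went from 63.5 ± 2.78 to 26.0 ± 2.37 and to 63.3 ± 2.75.

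Gene lists of liver zones and of the clock moved with the groups as well. Of 8 pericentral genes, 4 were lower DEGs in the TAA group, led by the glutamate carrier Slc1a2 (-8.62) and Oat (-6.17), and 4 were higher in recovery vs TAA, led by the same genes (7.91 and 4.73). Oat stayed lower in the recovery group than in control (-1.44). Of 7 periportal genes, 3 were lower DEGs in the TAA group (2 with hepatocyte marker scaling), led by Pck1 (-2.53) and Hal (-2.06), and 3 were higher in recovery (2.03 and 2.45 for these). Of 15 clock genes, 2 were higher and 3 lower DEGs in the TAA group. Arntl (1.29) and Npas2 (1.25) were higher, and Hlf (-1.33) and Nr1d1 (-1.18) had the largest falls. These counts were 3 and 0 with hepatocyte marker scaling. In recovery vs TAA, 4 were higher and 3 lower DEGs. In recovery vs control, 2 were higher and 5 lower DEGs, with Npas2 (3.03) and Arntl (2.90) above control and Dbp (-3.21) and Ciart (-2.78) below it. Cyp4a10 and Cyp4a14 are known to follow the time of day in mouse liver, and the hour at which livers were taken is not given in the sources used here. The part of that hour in the Cyp4 differences was not tested in any of the 3 comparisons.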

How the data were processed

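Livers of 9 male mice, 3 per group, were profiled by mRNA sequencing, with 1 library per mouse. Per the labels and the methods of the study, the authors aligned 150 bp paired-end reads to mm10 with HISAT2 2.2.1, assigned them to genes with featureCounts 1.5.0-p3 and deposited FPKM per gene and library. The rule for gene length, the strand setting and the counting of reads that fit several genes are not given in the sources used here. Depth was read from the steps between low FPKM, which were whole multiples of 1 fragment (within 0.08) for 47.3% to 56.8% of low values in a library, where chance gives 16%. Depth is therefore an estimate, no count test was run, and no interval from counting was computed.

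FPKM were scaled by median-of-ratios factors (0.827 to 1.38), and genes whose mean FPKM was 0.1 or more were kept. Each pair of groups was fitted with limma 3.58.1 (trend, moderated variances, two-sided) in R 4.3.3 on log2(scaled FPKM + 0.1), so that fold changes of low genes are understated. The adjustment was that of Benjamini and Hochberg across the 14094 genes. The scripts were tested on simulated data. A p-value here sets a group difference against the spread between mice within groups, moderated by a trend over all genes. With 3 against 3, an exact permutation test of a single gene cannot go below 0.1 and was not used.

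The members and gene lists were chosen with earlier results of these data known. Besides the 10 members, Ppara, Rxra, Hnf4a and Por were always described, and otherwise at most the 2 largest rises and the 2 largest falls among the DEGs of each list and comparison. Alb, Ahsg, Cd36, Cyb5b and Cyb5r3 were named outside this rule, after their values were seen. The growth hormone and STAT5B list is reported here only in part. Alternatives changed the pseudocount, the low-value filter, the scaling, the samples in the fit, the moderation of variances, the test, the replicate number as a block, the summing of near-identical genes and the set of mice. Coordinates and coding sequences were read from GENCODE M21, whose loci were identical to those of the table for 92.7% of genes, with Python 3.11.15 and Biopython 1.88. Promoters came from RefSeq on GRCm38.p6.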

Additional observations from a re-analysis of the deposited data

How the results depend on the processing

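Of the members, 9 were DEGs in TAA vs control and in recovery vs TAA with any 1 mouse left out and under every alternative run other than FPKM as deposited and hepatocyte marker scaling. In recovery vs control 0 were DEGs by limma under all of them (2 at an unadjusted p under 0.05 in the fit reported). With hepatocyte marker scaling, 7 were DEGs in TAA vs control and 5 in recovery vs TAA, where Cyp4a31 (0.84), Cyp4f15 (0.84), Cyp4f13 (0.59) and Cyp4v3 (0.69) missed the fold change of 2. As deposited, 8 were DEGs in each of these, and Cyp4f13 missed it at -0.99 and 0.93. Of all DEGs in recovery vs TAA, 9.89% were higher as deposited and 3.97% with hepatocyte marker scaling. Cyp4f14 changed sign in TAA vs control, to 0.061 as deposited and 0.40 with hepatocyte marker scaling, and to -0.32 in recovery vs TAA with the latter. In recovery vs control, where no member was called, signs turned for Cyp4v3 (0.0028 as deposited, 0.0069 with quantile normalization) and Cyp4a10 (0.079 with quantile normalization). With 1 mouse left out they ranged from -0.28 to 0.011 for Cyp4a10, from -0.23 to 0.26 for Cyp4a12a and from -0.072 to 0.081 for Cyp4f14. The median share of the TAA change left in recovery, 4.47%, ranged from 3.29% to 5.35% with 1 mouse left out, was 0.0776% with quantile normalization and 2.86% with near-identical genes summed. The causes of these changes were not tested, beyond the shift that each scaling adds to every gene.

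Counts over all genes moved more. DEGs in TAA vs control, recovery vs TAA and recovery vs control numbered 3520, 3017 and 140. They were 1780, 1460 and 80 with a pseudocount of 1. They were 2204 and 1895 in the first pair with a mean FPKM of at least 1, where fewer genes were tested, and 6825 and 6221 with hepatocyte marker scaling. The treat test against a fold change of 2 gave 1441, 1084 and 0 (limma, with 88 at an unadjusted p under 0.05 in the last). In recovery vs control the count was 48 without a filter, 235 with all 9 libraries in one fit, and 85 without a variance trend. It ranged from 32 to 106 with 1 mouse left out, namely 103, 51 and 36 without control replicates 1, 2 and 3 and 106, 32 and 39 without recovery replicates 1, 2 and 3. Of DEGs in TAA vs control, 67.9% were higher, against 50% with a pseudocount of 1, 53.4% with the stricter filter, 55.7% with quantile normalization, 91.2% as deposited and 95.9% with hepatocyte marker scaling. Deviations from the group means agreed little between same-numbered mice of different groups (r of -0.0705 to 0.125 across genes). Differently numbered mice had r of -0.113 to 0.133. The values thus gave no sign that the numbers pair the mice, and they cannot exclude a pairing. With the replicate number as a block, recovery vs control had 17 DEGs, and no call of a member changed.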
